A study of Mus musculus with 6 samples.

Results

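The 8 genes Onecut1, Onecut2, Lhx1, Prox1, Tfap2a, Tfap2b, Tfap2c and Foxn4 encode transcription factors that direct retinal progenitors to horizontal and amacrine cell fates. They were chosen by gene symbol, and every probe set that the platform's annotation gave 1 of these symbols was taken. There were 19 of them among 45101 on the array, of which 17 were among the 27029 that passed the filter on mean signal. The genes had been proposed with earlier results of the same contrast known, lower Tfap2b signal among them, so their differences between genotypes are given as a description that supports nothing further.

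RNA came from the posterior segment of mouse eyes at embryonic day 15.5, hybridised to Affymetrix mouse expression arrays. The Oa1-/- group lacked Oa1 (Gpr143), which encodes a receptor coupled to G proteins in pigment cells and is mutated in ocular albinism, and had 3 arrays. The WT group had 3 arrays of the same age and dissection. Each array held the eyes of 6 embryos from 1 dam pooled as 1 sample, and the dams differed between arrays, so a replicate was a litter pool and p-values measure the spread between such pools. The labels do not say how much of the gene is deleted, nor the strain or the embryos' sex.

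Horizontal and amacrine cells are interneurons of the retina that arise from progenitors that switch on Foxn4 and then Ptf1a. Onecut1, Onecut2, Prox1 and Lhx1 belong to the horizontal cell programme downstream of that step, and the AP-2 factors Tfap2a, Tfap2b and Tfap2c act in horizontal cells or in amacrine cells after they leave the cell cycle. None of these genes is confined to the 2 cell types: Onecut factors also act in ganglion cell and cone genesis, Prox1 in lens fibres and lymphatic endothelium, and AP-2 factors in surface ectoderm and neural crest.

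Among the 17 probe sets kept, 4 had groups that did not overlap, all with lower Oa1-/- values, a pattern that 5.31% of all probe sets kept had. They belong to Tfap2b and Prox1, so the promoters of these genes are shown. Another kept Prox1 probe set, 1421336_at, had overlapping groups. Each window runs from 250 bases before the start of a RefSeq transcript to 50 bases after it (RefSeq sequence, build GRCm38.p6), 5′ to 3′ on the gene's strand. Capitals mark a match to the ONECUT core. The Tfap2b window is chr1:19211804-19212103 on the plus strand. The Prox1 windows are chr1:190170778-190171077 and chr1:190169466-190169765 on the minus strand.
Tfap2b: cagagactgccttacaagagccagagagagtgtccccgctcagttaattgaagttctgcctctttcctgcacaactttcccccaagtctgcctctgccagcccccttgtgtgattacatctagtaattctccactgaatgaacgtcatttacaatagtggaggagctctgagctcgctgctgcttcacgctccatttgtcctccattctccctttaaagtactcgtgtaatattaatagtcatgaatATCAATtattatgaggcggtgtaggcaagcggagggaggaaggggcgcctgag
Prox1, upstream start: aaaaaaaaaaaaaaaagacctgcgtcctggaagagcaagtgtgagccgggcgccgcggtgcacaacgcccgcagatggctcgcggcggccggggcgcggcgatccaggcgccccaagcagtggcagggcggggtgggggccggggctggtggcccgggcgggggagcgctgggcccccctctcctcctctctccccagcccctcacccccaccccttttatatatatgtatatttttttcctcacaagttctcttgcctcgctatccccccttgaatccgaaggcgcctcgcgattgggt
Prox1, downstream start: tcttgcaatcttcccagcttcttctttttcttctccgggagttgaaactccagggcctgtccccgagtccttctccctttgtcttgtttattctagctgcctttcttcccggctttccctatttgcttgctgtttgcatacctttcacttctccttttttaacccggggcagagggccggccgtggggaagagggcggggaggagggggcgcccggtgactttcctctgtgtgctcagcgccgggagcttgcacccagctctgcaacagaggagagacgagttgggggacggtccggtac

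Searched on both strands, the ONECUT core (ATCAAT or ATTGAT) stood in 7.54% of 32851 promoter windows of the same length, and in 1 of 8 windows of 6 of the genes. That window was the Tfap2b promoter, with the match at -3 to 3 around the start, counted with no position 0. The AP-2 palindrome GCCNNNGGC stood in 16.59% of all windows and in 0 of the 8. The Tfap2b window had a GC content of 48.3% and the Prox1 windows 64.3% and 57.3%, against a median of 52.7% over all windows. A match is a run of letters, not a measured binding site.

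A pair of arrays stood apart in the control values. WT replicate 3 had a signal of 9.26 for the Y-linked gene Eif2s3y, while the other 5 arrays had 406 to 805, and Kdm5d behaved alike, with 13.5 against 377 to 736. Oa1-/- replicate 1 had the lowest median signal, 93.6 against 108 to 129 on the other 5 arrays, and the highest 18S ribosomal control signal, 6348 against 1476 to 2618. The targeted gene Gpr143 had signals of 28.3, 39.1 and 6.02 on the Oa1-/- arrays, against 250, 257 and 246 on the WT arrays. Among 27 bacterial spike-in controls, the brightest lay between 22.1 and 39.3 on the 6 arrays, which places the background. Signals are linear, scaled by the authors to a common target, and are compared between arrays within a probe set and never between probe sets. Changes are Oa1-/- minus WT on log2(signal + 16), a scale that makes changes of dim probe sets look smaller than they are.

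Foxn4, the forkhead factor that makes progenitors competent for horizontal and amacrine fates, was far above background on every array. In bulk tissue, fewer cells of a type and less RNA per cell cannot be told apart, here and for every gene that follows. Its probe set 1425254_at gave 1725, 2117 and 1917 on the Oa1-/- arrays, against 2089, 1774 and 2333 on the WT arrays. The groups overlapped, with the lowest value on an Oa1-/- array and the highest on WT replicate 3. The means were 1920 ± 196 in Oa1-/- and 2065 ± 281 in WT (SD, n = 3 each), a change of -0.10 with a standard error of 0.12. The 95% interval of that change ran from -0.38 to 0.18. Single arrays moved the value: it was -0.01 without WT replicate 3, -0.03 without Oa1-/- replicate 1, -0.21 without WT replicate 2 and -0.17 without Oa1-/- replicate 2. Its sign turned, to 0.07, when WT replicate 3 and Oa1-/- replicate 1 were both left out.

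Tfap2b, AP-2 beta, is a marker and a determinant of postmitotic amacrine and horizontal cells. Probe set 1423340_at gave 613, 682 and 700.5 on the Oa1-/- arrays, against 974, 928 and 1002 on the WT arrays. All 3 Oa1-/- values lay below all 3 WT values, and the spread within each genotype was small. The means were 665 ± 46.3 in Oa1-/- and 968 ± 37.3 in WT (SD, n = 3 each), a change of -0.53 (standard error 0.10). The other probe set, 1435670_at, gave 1942, 2007 and 2022 on the Oa1-/- arrays, against 2188, 2292 and 2475 on the WT arrays. Here too the groups did not overlap, but the change was smaller. The means were 1990 ± 42.4 in Oa1-/- and 2318 ± 145 in WT (SD, n = 3 each), a change of -0.22 (standard error 0.08). With WT replicate 3 and Oa1-/- replicate 1 both left out, the changes were -0.45 for 1423340_at and -0.15 for 1435670_at. The within-genotype SD on the log2 scale was at the 9.45th percentile of all probe sets kept for 1423340_at and at the 5.31st for 1435670_at.

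**Figure D1:**
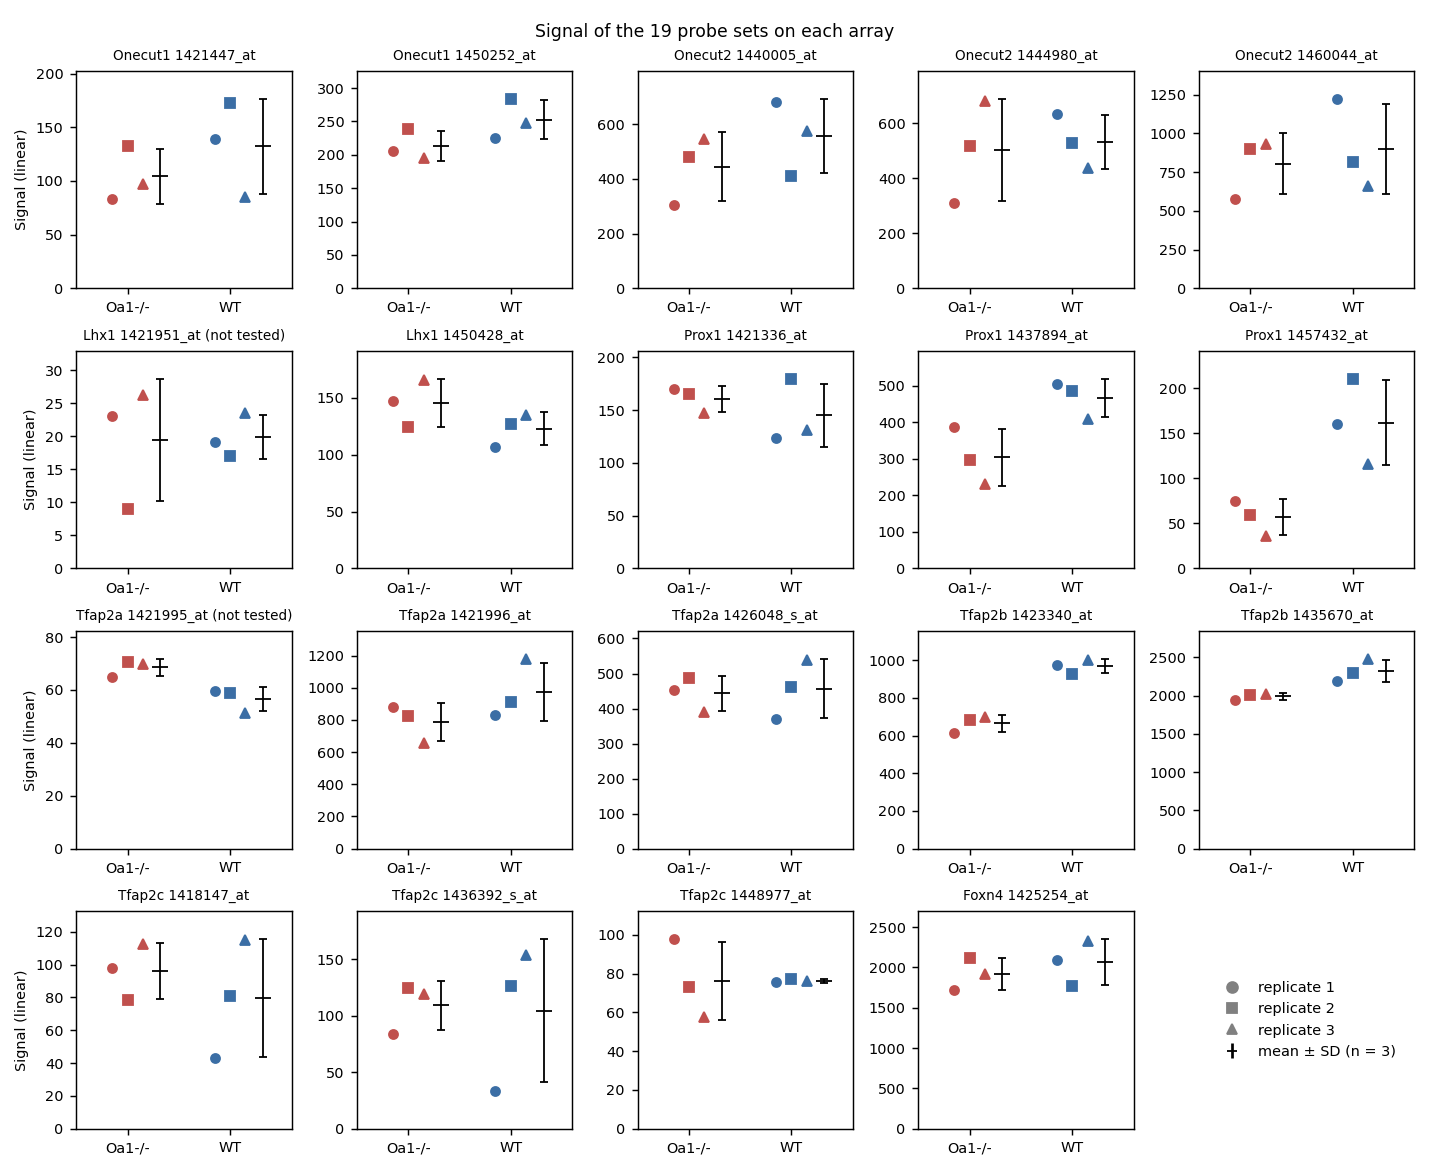
Linear signal of the 19 probe sets on each array, Oa1-/- left of WT, with replicates 1 to 3 as circle, square and triangle and bars for mean ± SD (n = 3). Both Tfap2b probe sets and Prox1 1437894_at and 1457432_at have every Oa1-/- point below every WT point. Each vertical axis starts at 0.

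Tfap2a, AP-2 alpha, which acts together with Tfap2b in these interneurons, had 3 probe sets with different patterns. Probe set 1421996_at gave 882, 822 and 659 on the Oa1-/- arrays, against 834, 910 and 1177 on the WT arrays, so the groups overlapped. Its change was -0.30 (standard error 0.16), and it shrank to -0.15 if WT replicate 3 was left out and to -0.17 if Oa1-/- replicate 3 was. Probe set 1426048_s_at gave 454, 487 and 390 on the Oa1-/- arrays, against 370, 463 and 537 on the WT arrays, with a change of -0.03 (standard error 0.16). That value lies so near 0 that its sign turned under quantile normalization and median centring. The third probe set, 1421995_at, gave 65.0 to 70.5 on the Oa1-/- arrays, against 51.4 to 59.4 on the WT arrays. All Oa1-/- values were the higher ones there, opposite to Tfap2b, but the mean of 62.5 lay just under the filter at 66.0 and the probe set was not tested.

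Tfap2c, AP-2 gamma, is found in subsets of amacrine cells and in surface ectoderm. Probe set 1436392_s_at gave 84.1, 124 and 120 on the Oa1-/- arrays, against 33.6, 126 and 154 on the WT arrays. WT replicate 1 was far below the rest, which put the within-genotype SD at the 97.5th percentile of all probe sets kept. The change was 0.22 (standard error 0.44) with all arrays and -0.33 without WT replicate 1. Probe set 1418147_at had the same low array, with 97.9, 78.3 and 112 on the Oa1-/- arrays, against 43.2, 80.7 and 115 on the WT arrays. Its change was 0.29 (standard error 0.31), and -0.01 without WT replicate 1. Probe set 1448977_at did not have that low array: it gave 97.6, 73.0 and 57.7 on the Oa1-/- arrays, against 75.4, 77.4 and 76.0 on the WT arrays. Its mean of 76.2 was the closest to the filter among the member probe sets kept.

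Prox1, the homologue of Drosophila prospero, promotes cell-cycle exit of progenitors and is required for horizontal cells. Probe set 1437894_at gave 386, 297 and 231 on the Oa1-/- arrays, against 506, 486 and 409 on the WT arrays. The groups did not overlap, and the nearest pair was Oa1-/- replicate 1 and WT replicate 3. The means were 305 ± 78.0 in Oa1-/- and 467 ± 51.3 in WT (SD, n = 3 each), a change of -0.61 (standard error 0.19), or 1.53-fold lower in Oa1-/-. Probe set 1457432_at gave 75.1, 59.7 and 36.5 on the Oa1-/- arrays, against 160, 210 and 116 on the WT arrays. All Oa1-/- values were again the lower ones, and Oa1-/- replicate 3 lay under the highest bacterial control of its own array, 39.3. Its change was -1.28 (standard error 0.29), or 2.43-fold lower in Oa1-/-, the widest among the 17 probe sets. The mean of 1457432_at was 57.1 in Oa1-/-, under the filter at 66.0, and 162 in WT. It was therefore tested because of its WT values, and a probe set as dim as that in each group would have been left out.

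The third Prox1 probe set, 1421336_at, had no such separation. It gave 170, 165 and 147 on the Oa1-/- arrays, against 124, 179 and 132 on the WT arrays, with a change of 0.15 (standard error 0.19). Leaving out WT replicate 1 gave 0.06, WT replicate 3 gave 0.10 and WT replicate 2 gave 0.30. In the platform annotation this probe set was designed on a RefSeq transcript of the gene, while the pair with lower values was designed on other GenBank records. The probe sets of Prox1 therefore disagreed in direction, and no single change of the gene can be given. Without WT replicate 3 and Oa1-/- replicate 1 the changes were -0.88 for 1437894_at, -1.66 for 1457432_at and 0.06 for 1421336_at.

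Onecut1 and Onecut2, cut-homeobox factors that act redundantly in horizontal cell genesis, had lower mean signals in Oa1-/- on all 5 of their probe sets, with overlapping groups on each. Onecut2 1460044_at gave 577, 902 and 932 on the Oa1-/- arrays, against 1223, 816 and 659 on the WT arrays. Probe set 1440005_at gave 305, 481 and 547 on the Oa1-/- arrays, against 680, 412 and 576 on the WT arrays, and 1444980_at gave 310, 516 and 680 on the Oa1-/- arrays, against 633, 528 and 436 on the WT arrays. Oa1-/- replicate 1 was the lowest array and WT replicate 1 one of the 2 highest on each Onecut2 probe set. The changes were -0.14 (standard error 0.25) for 1460044_at, -0.32 (0.24) for 1440005_at and -0.13 (0.27) for 1444980_at. Without Oa1-/- replicate 1 the change of 1444980_at was 0.17 and that of 1440005_at -0.08, and that of 1460044_at was 0.07. Without WT replicate 1 the changes were -0.01 for 1444980_at, -0.17 for 1440005_at and 0.10 for 1460044_at, so the lower means rested on both of these arrays. Without WT replicate 2 the change of 1440005_at was -0.52.

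Onecut1 1450252_at gave 206, 238 and 195 on the Oa1-/- arrays, against 225, 284 and 248 on the WT arrays. Only Oa1-/- replicate 2 and WT replicate 1 crossed over. The change was -0.23 (standard error 0.16), with a 95% interval from -0.59 to 0.13. The dimmer 1421447_at gave 82.8, 133 and 97.3 on the Oa1-/- arrays, against 139, 173 and 85.2 on the WT arrays, with a change of -0.28 (standard error 0.28). The WT array with no Y-linked signal, replicate 3, held the second lowest value of this probe set, and without it the change was -0.53. It was -0.08 without WT replicate 2, -0.14 without Oa1-/- replicate 1 and -0.44 without Oa1-/- replicate 2. For 1450252_at the change was -0.15 without WT replicate 2.

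Lhx1, the LIM-homeobox factor that places horizontal cells in their layer, was the gene whose only tested probe set had a higher mean in Oa1-/-. Probe set 1450428_at gave 147, 124 and 166 on the Oa1-/- arrays, against 107, 127 and 135 on the WT arrays. The groups overlapped through Oa1-/- replicate 2, and the change was 0.22 (standard error 0.19) with a 95% interval from -0.22 to 0.65. It was 0.13 without Oa1-/- replicate 3 and likewise without WT replicate 1, and 0.08 with array weights. Lhx1 1421951_at had a mean of 19.7 and exceeded the highest bacterial control on 1 array, so it lay in the background and was not tested.

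Across the 17 probe sets kept, 0 passed limma's adjusted p of 0.05, as did 0% of all 27029 tested. Their adjusted p ranged from 0.985 to 0.998 (limma). At an unadjusted p under 0.05 there were 4 of the 17, all lower in Oa1-/-, and 1110 of the 27029. Those 4 were the pairs of Tfap2b and Prox1 already described, and they were also the 4 with every Oa1-/- value under every WT value, a pattern that 5.31% of all probe sets kept had. The reverse pattern was found for 0 of the 17 and for 4.92% of all. The change was negative for 13 and positive for 4, with a median of -0.14, against a median of -0.01 over all probe sets kept. Without Tfap2b and Prox1, 12 probe sets were left, of which 9 were lower and 3 higher with a median of -0.12. Probe sets of 1 gene share its transcripts and are not independent, and nothing is read from these shares because the choice of genes used this contrast. An exact permutation test of a single probe set cannot go below a two-sided p of 0.1 with 3 arrays against 3.

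**Figure D2:**
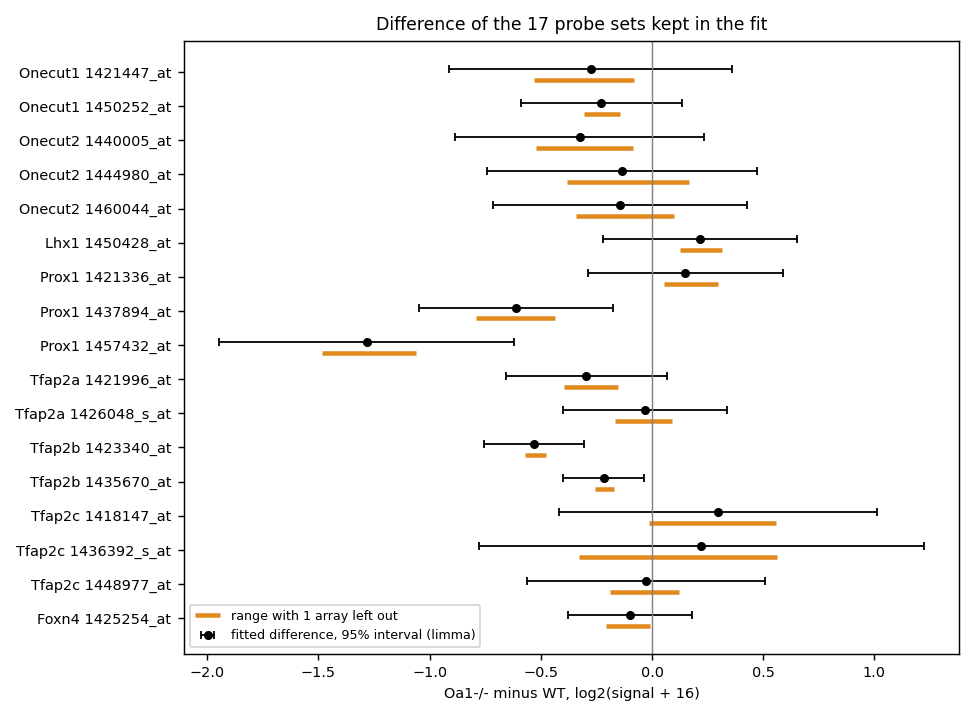
Change of each of the 17 probe sets kept, Oa1-/- minus WT on log2(signal + 16), with limma's 95% interval in black and the range over fits that leave out 1 array in orange. The interval of both Tfap2b probe sets and of Prox1 1437894_at and 1457432_at lies below 0, while the leave-out range of Onecut2 1444980_at and 1460044_at, Tfap2a 1426048_s_at and all Tfap2c probe sets crosses 0.

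Other genes of amacrine and horizontal specification had changes in both directions. Of 18 further factors measured, 15 passed the filter, of which 9 were higher and 6 lower in Oa1-/- by the probe set used for each gene, with a median of 0.07. By limma 0 passed the adjusted threshold and 1, Pax6, had an unadjusted p under 0.05. Ptf1a, which progenitors switch on after Foxn4, gave 1574, 1484 and 1369 on the Oa1-/- arrays, against 1217, 1196 and 1614 on the WT arrays. The change of Ptf1a was 0.15 (standard error 0.13). Rorb, a nuclear receptor that acts with Foxn4 upstream of Ptf1a, had a change of 0.07 on 1439862_at, but its probe set 1455799_at had all Oa1-/- arrays lower, with 2171, 2213 and 2292 against 3084, 2362 and 2815 in WT. The amacrine factors Neurod4 and Barhl2 had changes of 0.18 and -0.07, with WT replicate 1 lowest for both. Onecut3 was at background, with signals between 1.83 and 4.15.

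Pax6, which keeps progenitors multipotent and persists in amacrine and horizontal cells, gave 11448, 11541 and 10597 on the Oa1-/- arrays, against 10026, 10063 and 10042 on the WT arrays. The groups did not overlap on that probe set, 1419271_at, and the change was 0.16 (standard error 0.07). The other 4 Pax6 probe sets had overlapping groups, with changes of 0.06, 0.14 and -0.08 for 1437816_at, 1452526_a_at and 1456342_at, while 1425960_s_at was not tested. Isl1, a factor of ganglion and cholinergic amacrine cells, was also higher on all Oa1-/- arrays, by 0.10 (standard error 0.06) on 1450723_at, while its other probe set, 1422720_at, had overlapping groups and a change of 0.02. These were the 2 of 15 factors with that pattern, which 4.92% of all probe sets kept had. The reverse, 1 of 15, was Nr4a2, an orphan nuclear receptor of an amacrine subset.

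Genes listed as products of amacrine and horizontal cells had a log2 change above 0 for 11 of 11 tested, with a median of 0.12. By limma 0 passed the adjusted threshold and 0 had an unadjusted p under 0.05. The median of all probe sets kept was -0.01, and 12814 of the 27029 had a change above 0. For Slc32a1, the vesicular GABA transporter, the change was 0.01 and the mean linear signal was lower in Oa1-/-, at 96.6, against 105 in WT. Calb1, the calbindin of horizontal cells, gave 78.2, 80.1 and 78.7 on the Oa1-/- arrays, against 59.2, 58.3 and 55.4 on the WT arrays, a change of 0.37 (standard error 0.21) with no overlap. It was the product gene with no overlap, 1 of the 11, and 4.92% of all probe sets kept had all Oa1-/- arrays higher. The Calb1 mean was 57.6 in WT, under the filter at 66.0, and 79.0 in Oa1-/-, so it was tested because of its Oa1-/- values. Its other probe sets, 1448738_at, 1456934_at and 1458836_at, did not exceed the highest bacterial control on any array. Gad2, which makes the transmitter GABA, had a change of 0.22 (standard error 0.21) with overlapping groups. Gad1, the other GABA-making enzyme, was under the filter and ranged from 43.1 to 70.7 in Oa1-/- and from 7.15 to 137 in WT.

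The 10 partners of Onecut factors in ganglion cell and photoreceptor genesis had 8 log2 changes above 0 and 2 below, with a median of 0.13, and Isl1 and Neurod1 stand in this list and in the factors. By limma 0 passed the adjusted threshold and 1, Atoh7, had an unadjusted p under 0.05. Atoh7, which makes progenitors competent for the ganglion cell fate, was higher on all Oa1-/- arrays, with 15864, 15370 and 14987 against 13532, 13627 and 14205 in WT. The change on that probe set, 1422929_s_at, was 0.16 (standard error 0.06). Its other probe set, 1450796_at, also had no overlap, with a change of 0.31 (standard error 0.07). Atoh7 and Isl1 were the 2 of 10 partners with all Oa1-/- arrays higher, against 4.92% of all probe sets kept. Otx2 and Thrb, factors of photoreceptor precursors and cones, had changes of 0.04 and 0.16 with overlapping groups. The lists moved with single WT arrays. WT replicate 1 was the lowest array for 10 of 10 partners, 8 of 15 factors and 6 of 11 products, against 19.4% of all probe sets kept. Without it the median of the partners was -0.05 and that of the factors -0.03, while that of the products stayed above 0, at 0.14. WT replicate 3 was the highest array for 7 of 10 partners, and without it the median of the products was 0.35. With WT replicate 3 and Oa1-/- replicate 1 both left out, the medians were 0.13 for the factors, 0.32 for the products and 0.18 for the partners.

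**Figure D3:**
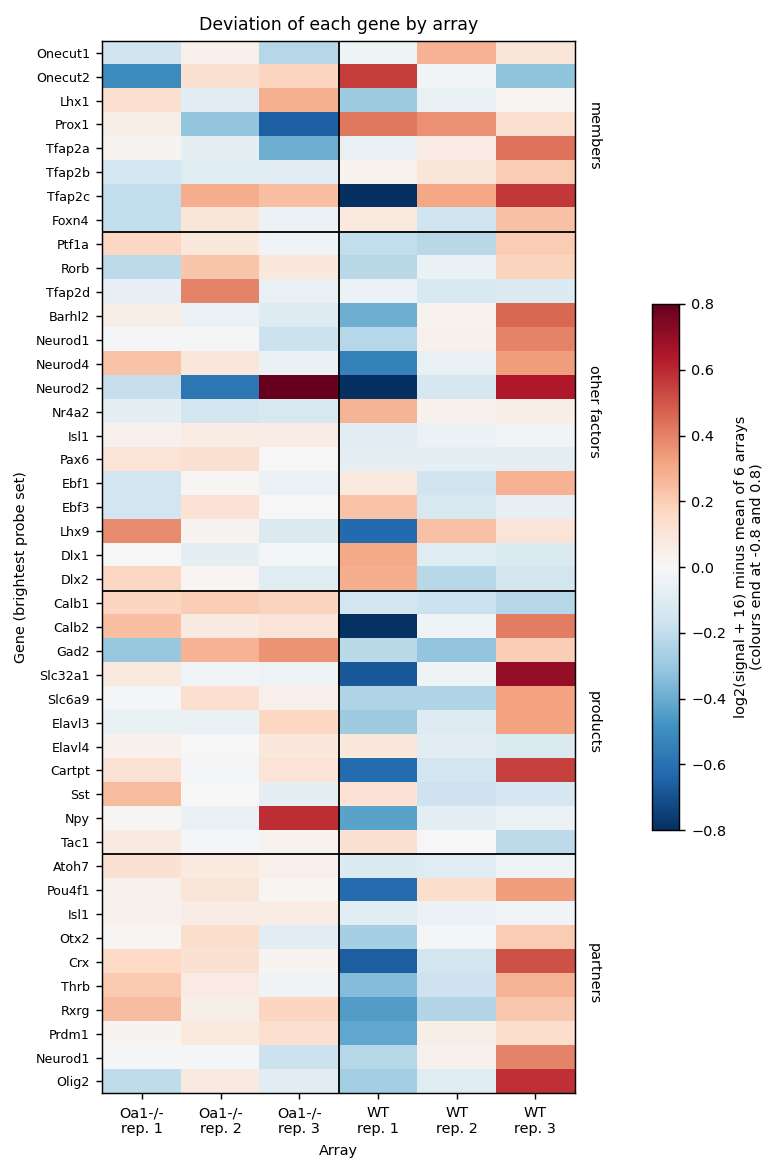
Deviation of log2(signal + 16) from the mean of the 6 arrays for 1 probe set per gene, with Oa1-/- arrays left of WT arrays and red above and blue below the mean (colours end at -0.8 and 0.8). WT replicate 1 is blue for all 10 partners, while Tfap2b and Prox1 show blue Oa1-/- arrays and red WT arrays with the exception of Prox1 on Oa1-/- replicate 1.

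The AP-2 factors and Prox1 are also made by other cells of the eye, whose markers are given here. For the AP-2 factors, 12 of 12 surface epithelium markers were tested, with 5 higher and 7 lower in Oa1-/- and a median of -0.08. Their summed signal ran from 8376 to 10263 in Oa1-/- and from 7621 to 13625 in WT, and none was at background. Of 12 neural crest and mesenchyme markers tested, 4 were higher and 8 lower, with a median of -0.14, and the sum of the 13 measured ran from 60048 to 64112 in Oa1-/- and from 57770 to 68288 in WT. Sums are led by the brightest genes, here collagens and matrix proteins for the mesenchyme. Gene by gene, the median deviation of the mesenchyme list from the mean of the 6 arrays was -0.03, -0.08 and -0.13 on the Oa1-/- arrays, against 0.19, 0.12 and -0.03 on the WT arrays. WT replicate 3 lay among the Oa1-/- values. Within each genotype this list was highest on replicate 1 and lowest on replicate 3. Tfap2b 1435670_at had the reverse order, lowest on replicate 1 and highest on replicate 3 within each genotype. Tfap2b 1423340_at had that order in Oa1-/- but not in WT, where replicate 2 was lowest, with 928 against 974 on replicate 1. These orders rest on 3 arrays per genotype and were not tested. In the mesenchyme list Twist1 (-0.42) and Osr1 (-0.76), singled out after their values were seen, had all Oa1-/- arrays lower. Both had an unadjusted p under 0.05 by limma, and 0 passed the adjusted threshold. These were the 2 of 12 with all Oa1-/- arrays lower, a pattern that 5.31% of all probe sets kept had. The Osr1 mean was 64.8 in Oa1-/-, under the filter at 66.0, and 126 in WT, so it was tested because of its WT values. The surface epithelium list gave 0.10, -0.10 and -0.05 on the Oa1-/- arrays, against -0.18, 0.05 and 0.12 on the WT arrays. The part of these cells in the Tfap2b and Tfap2a values was not tested.

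For Prox1, 10 of 11 lens markers tested were higher in Oa1-/- and 1 lower, with a median of 0.10, and the lens factor Foxe3 was at background. The summed signal of the 12 lens genes ran from 117664 to 129097 in Oa1-/- and from 94909 to 132146 in WT, so lens RNA was present on every array of the dissected posterior segments. Of 10 endothelial markers 8 were higher and 2 lower, with a median of 0.12, and their sum ran from 7324 to 8058 in Oa1-/- and from 7274 to 7934 in WT. Gene by gene, the median deviation of the lens list was 0.17, 0.03 and -0.02 on the Oa1-/- arrays, against -0.41, 0.17 and 0.11 on the WT arrays. That of the endothelial list was 0.06, 0.11 and 0.04 on the Oa1-/- arrays, against -0.06, 0.14 and -0.31 on the WT arrays. Both lists overlapped between the genotypes, and their part in the Prox1 values was not tested. Markers of the neural retina were present: of 9 progenitor genes 5 were higher and 4 lower, with a median of 0.01. Of 9 pigment epithelium genes tested, 5 were higher and 4 lower, with a median of 0.03, and Rpe65 was at background.

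**Figure D4:**
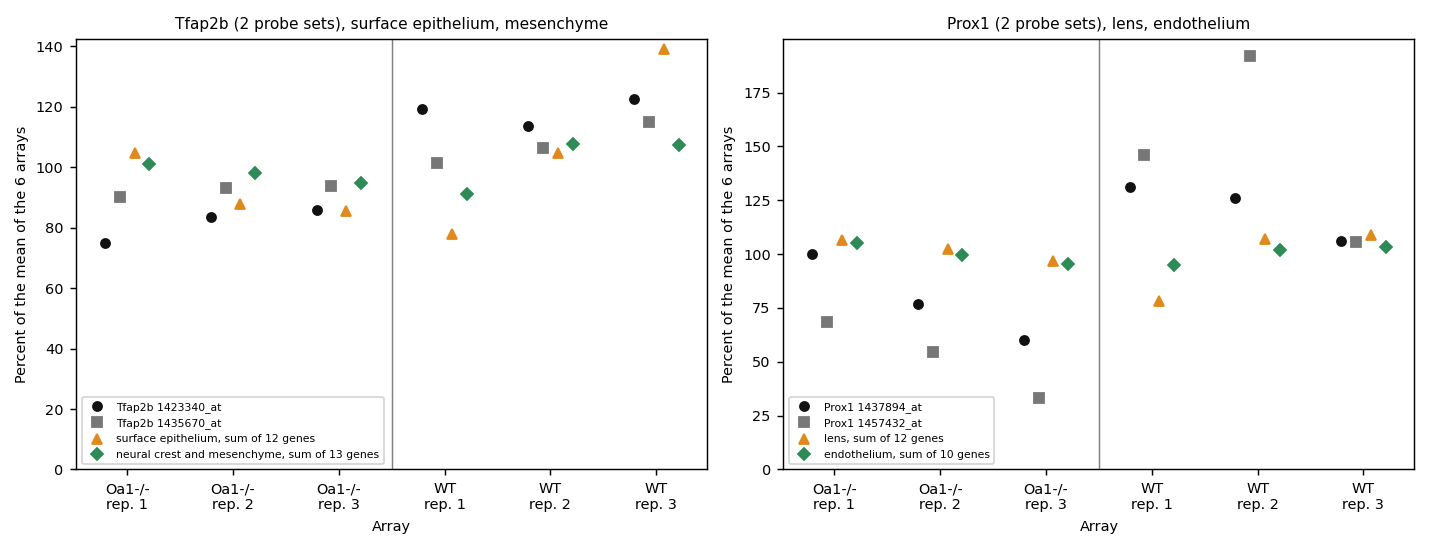
Signal on each array as a percent of the mean of the 6 arrays, Oa1-/- left of WT, for Tfap2b with the summed surface epithelium and mesenchyme markers (left) and for Prox1 1437894_at and 1457432_at with the summed lens and endothelial markers (right). Each of the 4 probe sets has its Oa1-/- arrays below its WT arrays, and the 4 marker sums, led by their brightest genes, overlap between the genotypes.

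The probe sets most like each gene in profile over the 6 arrays were listed as a description, by Pearson's r of log2(signal + 16). Each gene was taken by its probe set with the highest mean. The 6 points share the genotype and the differences between arrays, and many probe sets reach a high r on so few. Tfap2b was most like Col13a1 (r = 0.995), Jak1 (r = 0.993) and Rab2a (r = 0.991), with 55 probe sets above an r of 0.95. Prox1 1437894_at was most like Xrn2 (r = 0.987), U2surp (r = 0.984) and Rbsn (r = 0.983), with 44 above 0.95. That is the profile of 1 probe set, since those of Prox1 disagreed in direction. Onecut2 was most like Mdn1 (r = 0.996), Yeats2 (r = 0.996) and Atp6v0a1 (r = 0.995), and 232 probe sets exceeded 0.95. Lhx1 was most like Med19 (r = 0.995), Ldb2 (r = 0.995) and Morf4l2 (r = 0.988), and Foxn4 was most like Vezf1 (r = 0.996), Hacd3 (r = 0.987) and Tsacc (r = 0.986).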

How the data were processed

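Signal intensities, 1 per probe set and array on a linear scale, were deposited by the authors and made with MAS5, per the submitters' processing notes, which give no version. The mean after trimming 2% at each end was 500.002 on all 6 arrays. Detection calls were not used here. Symbols came from the platform annotation; 34945 probe sets had 1 symbol. The members and gene lists were chosen with earlier results of these data known.

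Here log2(signal + 16) was modelled with limma 3.58.1 under R 4.3.3, using lmFit and eBayes (intensity trend) for Oa1-/- minus WT, two-sided and without a covariate. The 64 control probe sets were left out, and probe sets with a mean above the 40th percentile (66.0) were kept. Benjamini-Hochberg adjustment ran over all 27029, with a threshold of 0.05. The code was tested on simulated data. Precision is limited by 3 arrays per genotype.

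Lists used the probe set of each gene with the highest mean. Named were all member probe sets, list genes picked for their biology, the 3 genes most like Onecut2, Lhx1, Prox1, Tfap2b and Foxn4, and Gpr143. Some genes of the lists are not reported here. Alternatives were other pseudocounts, filters, scalings, variance settings, array weights, a replicate block, averaging each gene's probe sets, and omitting arrays. Replicate numbers were not taken as pairs in the main fit, since the labels name no batch.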

Additional observations from a re-analysis of the deposited data

How the results depend on the processing

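Over 269 alternative values of member changes, 251 kept their direction, 18 turned it, and none passed the adjusted threshold. The 251 include values whose direction could not turn. Other filters, no intensity trend and the replicate block leave the change itself as it was, so the count does not measure how stable directions are. The smallest adjusted p was 0.156, for Tfap2b 1423340_at and Prox1 1457432_at with array weights (limma). Of all probe sets, 2 passed with median centring and 2 with array weights, against 0 otherwise, also with the replicate block (0 probe sets). Deviations of same-numbered arrays from their genotype means had r = -0.29, 0.16 and -0.23. With 3 arrays per genotype these values cannot show whether the numbers stand for a shared batch. The count of member probe sets with all Oa1-/- arrays lower ran from 4 to 7 with 1 array left out (7 without WT replicate 1) and was 7 without both WT replicate 3 and Oa1-/- replicate 1, where fewer arrays make separation easier. With array weights the change was 0.11 for Foxn4, 0.0365 for Tfap2a 1426048_s_at, 0.00917 for Onecut2 1440005_at and 0.0369 for Onecut2 1460044_at. Without both arrays it was 0.0652 for Foxn4, 0.0717 for Tfap2a 1426048_s_at and 0.0341 for Onecut2 1444980_at. Tfap2a 1426048_s_at was at 0.00327 with quantile normalization and 0.000375 with median centring, and Tfap2c 1448977_at at 0.00507 with median centring. Leaving out 1 array at a time, changes ran from -0.17 to 0.0909 for Tfap2a 1426048_s_at, -0.38 to 0.17 for Onecut2 1444980_at, -0.34 to 0.0981 for Onecut2 1460044_at, -0.0136 to 0.56 for Tfap2c 1418147_at, -0.33 to 0.56 for Tfap2c 1436392_s_at and -0.19 to 0.12 for Tfap2c 1448977_at; the cause was not tested. Tfap2b stayed between -0.57 and -0.48 for 1423340_at and between -0.26 and -0.17 for 1435670_at. Prox1 ran from -0.79 to -0.44 for 1437894_at and from -1.48 to -1.06 for 1457432_at. The list medians turned sign without WT replicate 1 for factors and partners.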
